A study of Homo sapiens with 6 samples.

Results

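ZNF335 peaks on the gene-dense human chromosomes 1, 11, 16, 17, 19, 20 and 22 were taken from the peak list of cells with tagged wild-type (WT) protein. The rule that chose them named chromosomes alone and used no measured value, although it was set with earlier results of these data known. They came to 255 of the 634 WT peaks. The cells were Jurkat T-REx, a human leukaemic T cell line that carries a tetracycline-responsive repressor. One stable clone expressed 3xFLAG WT ZNF335, another 3xFLAG bloto (R1092W) ZNF335, and the control line no tagged protein. Per the labels' protocols, expression was switched on overnight with doxycycline and the chromatin was precipitated with anti-FLAG M2 antibody. The series holds 3 ChIP and 3 input samples, with 1 library per condition, so no value below has a replicate error. A peak list holds no expression values, so the cell type could not be checked against marker genes.

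ZNF335, called Zfp335 in mouse, is a transcription factor with C2H2 zinc fingers, small zinc-held folds that read DNA sequence. In mouse it is known for its part in the maturation of T cells, where the bloto allele was described, and in human its loss is known to impair brain growth. It is known to bind mostly near the starts of genes. Human chromosomes differ widely in how many genes they hold per length, and chromosome 19, rich in zinc finger genes, is the best known case of a gene-dense one. The density of binding sites per chromosome can therefore be read per length of DNA or per gene.

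The label gene-dense was checked against a gene table. RefSeq genes of assembly GRCh38.p14 were counted per chromosome and divided by the hg19 length, since no hg19 annotation was used here. The 7 chromosomes held 8.27 (chromosome 1) to 24.5 (chromosome 19) protein-coding genes per Mb, and the 16 others 2.93 to 7.65. The groups did not overlap. Together the 7 chromosomes made up 24.0% of the hg19 length of the 23 chromosomes, 39.2% of the protein-coding genes and 40.2% of the WT peaks.

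WT peaks lay more densely on the gene-dense chromosomes. Together these carried 0.350 peaks per Mb (exact Poisson 95% interval 0.308 to 0.395), against 0.164 (0.148 to 0.182) on the others. The ratio was 2.13 (exact 95% interval 1.81 to 2.50). Such intervals hold counting error alone and take each peak as independent of the rest, although some lie side by side. Leaving out 1 of the 7 chromosomes at a time kept the ratio between 1.84 (without chromosome 19) and 2.43 (without chromosome 1). With the length between the first and last peak of each chromosome as divisor, the ratio was 1.99 (1.69 to 2.34). The local background at the summits, in reads, had a median of 2.90 on the gene-dense chromosomes and 2.73 on the others, and its part in the density was not tested.

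The 7 chromosomes differed among themselves. Chromosome 19 had the highest density of the 23 chromosomes, 0.879 peaks per Mb (0.657 to 1.15) from 52 peaks. Chromosome 17 followed with 0.517 (0.373 to 0.699) from 42 peaks, and chromosome 22 with 0.448 (0.284 to 0.673) from 23. By hg19 length, the lower limits of these 3 lay above the values of all 16 other chromosomes, whose highest was chromosome 12 with 0.247. The interval of chromosome 22 nevertheless overlapped that of chromosome 12, 0.170 to 0.346. The intervals of chromosomes 19 and 17 overlapped none of the 16. Per Mb between its first and last peak, however, chromosome 21 had 0.469 from 5 peaks. On that scale chromosomes 19, 17 and 22 had 0.892, 0.563 and 0.704, and no limits were computed.

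The remaining members were closer to the rest of the genome. Chromosome 16 had 0.299 peaks per Mb (0.197 to 0.435) from 27 peaks, and chromosome 20 had 0.270 (0.157 to 0.432) from 17. Chromosome 1 carried the most peaks, 63, yet only 0.253 per Mb (0.194 to 0.323). Chromosome 11 was the lowest of the 7, with 0.230 (0.156 to 0.326) from 31 peaks, below chromosomes 12 and 14. The intervals of chromosomes 1, 11, 16 and 20 all included the value of chromosome 12, so these 4 could not be told from the densest of the others by counting error. Per Mb between first and last peak, these 4 had 0.240 to 0.301, below chromosomes 21 and 14, the latter with 0.313.

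**Figure D1:**
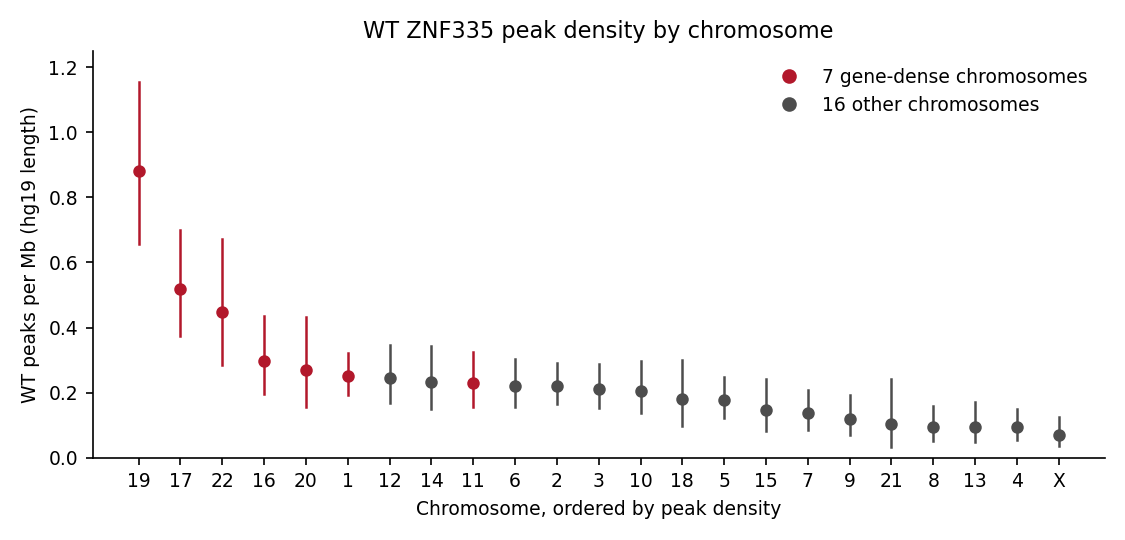
WT peaks per Mb of hg19 length for each of the 23 chromosomes with peaks, ordered by value. Points are peak counts divided by length, bars exact Poisson 95% intervals, red the 7 gene-dense chromosomes and grey the 16 others. The points of chromosomes 19, 17 and 22 stand above every grey point, although the bar of chromosome 22 overlaps grey bars. Chromosome 11, at 0.230, lies among the grey points.

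Per protein-coding gene the excess was not seen. The gene-dense chromosomes held 32.6 WT peaks per 1000 protein-coding genes (28.7 to 36.8) and the others 31.2 (28.1 to 34.5). The ratio was 1.04, with an exact 95% interval of 0.888 to 1.23. Protein-coding genes themselves were 2.04 times as dense on the 7 chromosomes. Without 1 of the 7 chromosomes at a time, the ratio per gene ranged from 1.01 to 1.10. The outcome depended on which genes were counted: per gene of any type, which adds non-coding genes and pseudogenes, the ratio was 1.399 (1.19 to 1.64).

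Chromosome 22 had the highest value of the 7 on this scale. It held 51.0 peaks per 1000 protein-coding genes (32.3 to 76.5), second after chromosome 18 with 51.9. Its interval overlaps that of every other member, so counting error does not set it apart. Chromosomes 17 and 19, the highest 2 per Mb, had 35.9 and 35.8. Chromosomes 20, 16 and 1 followed with 31.7, 31.6 and 30.6, and chromosome 11 was again the lowest of the 7, with 23.8. On the other 16 chromosomes the values ran from 12.97 on the X chromosome to 51.9.

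Across the 23 chromosomes, peaks per Mb and protein-coding genes per Mb had a Pearson's r of 0.94 and a Spearman's rho of 0.82. Without chromosomes 17 and 19, the farthest from the median gene density, r was 0.72. These correlations describe 1 library, and both measures share the length of the chromosome as divisor.

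**Figure D2:**
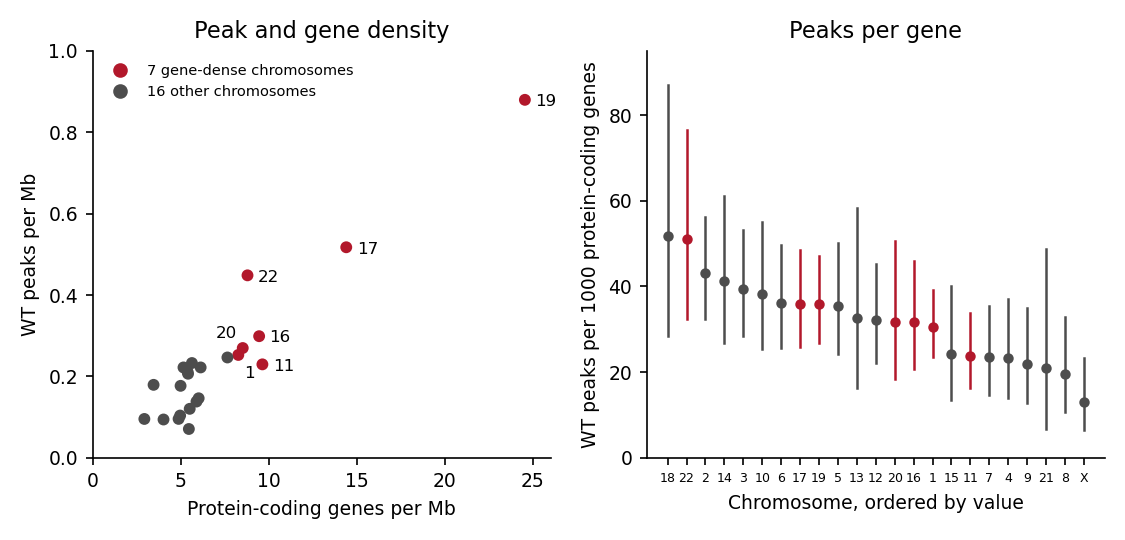
Left, WT peaks per Mb against RefSeq protein-coding genes per Mb for 23 chromosomes, with the gene-dense ones in red and numbered. Right, WT peaks per 1000 protein-coding genes with exact Poisson 95% intervals: the red points are spread among the grey ones, from 51.0 on chromosome 22 to 23.8 on chromosome 11.

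The closer packing was seen at distances above 100 kb. The distance from one WT summit to the next on the same chromosome had a median of 1001 kb (exact 95% interval of the median 750 to 1369 kb) over 248 neighbouring pairs of the gene-dense chromosomes. On the others it was 2152 kb (1633 to 2796 kb) over 363 pairs, and the intervals do not overlap. Distances of 100 kb to 1 Mb made up 36.7% (30.7% to 43.0%) of the pairs on the gene-dense chromosomes and 22.3% (18.1% to 27.0%) on the others. Distances over 10 Mb made up 7.26% (4.36% to 11.2%) and 18.5% (14.6% to 22.8%).

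Relative to density, no difference in spacing was detectable. Each distance was divided by the mean spacing of its chromosome, which is its length over its number of peaks. The median was 0.478 (0.384 to 0.614) on the gene-dense chromosomes and 0.420 (0.268 to 0.514) on the others, and these intervals overlap. The median distance within the 7 chromosomes ran from 0.694 Mb on chromosome 19 to 2.61 Mb on chromosome 1.

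Long stretches lay between some neighbouring WT peaks of chromosomes 1, 11, 16 and 20. Stretches before the first or after the last peak of a chromosome are not ranked here. Centromeres and gaps in the assembly were not taken out of any stretch. The longest among the 7 was 32.0 Mb on chromosome 1, between chr1:115124317-115124622 and chr1:147142733-147142905, on opposite sides of the centromere. The next was 23.5 Mb on chromosome 11, from chr11:89956384-89956535 to chr11:113448443-113448723. Chromosome 16 had the third and the fourth, 20.3 Mb after chr16:4852763-4852908 and 19.1 Mb after chr16:31105741-31106391. The fifth was 17.6 Mb on chromosome 20, after chr20:44600219-44601194. On chromosomes 17, 19 and 22, the densest per Mb, the longest distances between neighbours were 10.6, 10.5 and 5.42 Mb. Of the 10 peaks at the ends of these 5 stretches, 2 overlapped a bloto peak, near the share of 26.2% over all WT peaks.

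**Figure D3:**
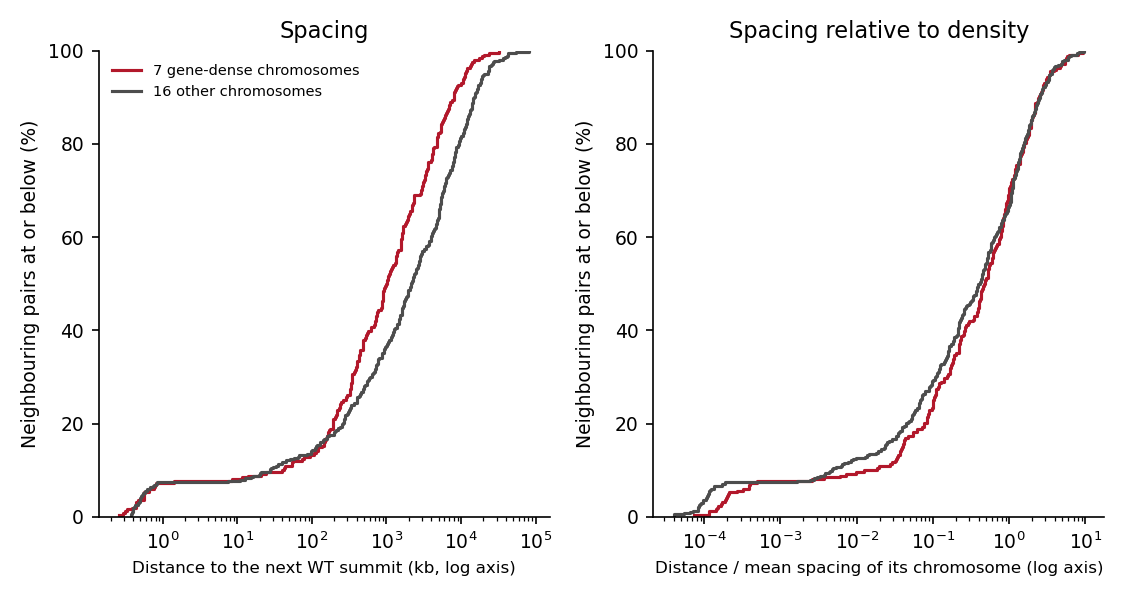
Cumulative share of neighbouring WT peak pairs by the distance between their summits, in kb (left) and divided by the mean spacing of the chromosome (right), both on log axes. The gene-dense chromosomes (red, 248 pairs) and the others (grey, 363 pairs) run together below 100 kb and part above it, with medians of 1001 and 2152 kb.

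Local clusters were defined as runs of WT peaks with neighbouring summits at most 100 kb apart. Over all WT peaks, 24.9% belonged to such a run. On the gene-dense chromosomes it was 65 of 255 peaks, 25.5% (exact Clopper-Pearson 95% interval 20.3% to 31.3%), and on the others 93 of 379, 24.5% (20.3% to 29.2%). A difference was therefore not detectable at this distance. Among peaks with a −log10 q of at least 5, the shares were 16.2% and 20.8%, in the opposite order. At 250 kb the shares were 43.5% (37.4% to 49.9%) and 31.7% (27.0% to 36.6%), and the intervals no longer overlapped. At 1000 kb they were 74.5% (68.7% to 79.7%) and 52.8% (47.6% to 57.9%).

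The runs were short. Of the 32 runs among the members, 31 were pairs and 1 had 3 peaks, whereas 6 of the 41 runs on the other chromosomes had 3 or more, up to 7. The run of 3 lay on chromosome 22 and spanned 44.2 kb between its outer summits: chr22:43539511-43539778 with a fold of 6.61, chr22:43539915-43540062 with 7.52 and chr22:43583628-43584126 with 6.54. Here a fold is the authors' value for each peak, the enrichment of ChIP reads over local background at its summit. None of these 3 peaks overlapped a bloto peak. By chromosome, the share of peaks in runs went from 14.8% on chromosome 16 to 39.1% on chromosome 22.

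Most of the tightest runs were pairs of peaks under 1 kb apart. There were 18 such pairs with 36 peaks on the gene-dense chromosomes, 14.1% of the members (10.1% to 19.01%), and 27 pairs on the others with 53 peaks, 13.98% (10.7% to 17.9%). These pairs thus held 36 of the 65 members in runs. In the 5 closest pairs of members the facing edges of the peaks lay 55 to 185 bp apart. Whether such pairs are separate binding sites was not tested. Distances of 1 to 10 kb were rare, with 2 pairs among the members and 1 among the others. The closest summits were 260 bp apart, in chr22:32870803-32870963 and chr22:32871025-32871225, with folds of 5.07 and 7.83 from 16 and 20 ChIP reads at the summit. Next came a pair 292 bp apart on chromosome 1, chr1:243418600-243419119 and chr1:243419198-243419361, with folds of 6.04 and 6.30 from 20 and 18 reads. All 4 peaks had fewer reads than the members' median of 26, and neither pair had a bloto peak.

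Other close pairs joined a strong and a weak peak. The peak chr19:37708646-37709337 had a fold of 13.2 and 66 reads, and its neighbour chr19:37709393-37709550, 308 bp away, a fold of 3.80 and 21 reads. On chromosome 17, chr17:65362512-65362955 had a fold of 10.99 and 63 reads, and chr17:65362283-65362434, 327 bp away, a fold of 4.35 and 18 reads. The fifth closest pair, 392 bp apart, was chr16:25122514-25122749 with a fold of 7.81 from 19 reads and chr16:25122935-25123088 with 6.72 from 17, and had no bloto peak. The strongest WT peak of the list, on chromosome 19, also had a weak neighbour, 563 bp away, with a fold of 3.89 and 17 reads against its own 30.7 and 87.

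Over the 18 close pairs the stronger peak had a median fold of 10.7 (7.83 to 15.96). The weaker peak had a median fold of 5.66 (4.90 to 6.61). Peaks of a pair were named stronger and weaker by this same fold, so the order of the medians was fixed in advance. Their intervals are therefore no test of a difference. A bloto peak lay at the stronger peak alone in 10 pairs, at the weaker alone in 1, at neither in 7 and at both in 0. The exception was on chromosome 19 between 13067533 and 13068442, where the folds of the pair were nearly equal, 9.50 and 9.45, and the peak of lower fold had the more reads, 54 against 31. The pattern on the other 16 chromosomes was of the same kind, with 14, 1, 12 and 0 of 27 pairs. Weak WT peaks seldom had a bloto peak on either set of chromosomes, as the shares by fold below show. Whether the split within pairs went beyond the sort by fold was not tested.

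Windows of fixed size showed where members were most crowded. The 5 Mb windows of hg19 held 3 or more WT peaks in 28.0% of 143 windows on the gene-dense chromosomes and in 7.03% of 455 on the others. The first 5 Mb of chromosome 19 held 9 WT peaks, 4 of them with a bloto peak, and 35 to 40 Mb on the same chromosome held 8, of which 2 had one. The most crowded single Mb among the members was 73 to 74 Mb on chromosome 17, with 6 peaks. There chr17:73201101-73202167, with a fold of 19.8 and 86 reads, and chr17:73257653-73258215, with 15.2 and 70 reads, both had bloto peaks, the only one of the 32 runs in which every peak did. The other 4 peaks of that Mb had folds of 5.85 to 8.90 and no bloto peak. The most crowded Mb of the whole list was elsewhere, at 31 to 32 Mb of chromosome 6, with 11 peaks. These windows were picked for their counts, so they are a description.

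Members in runs and members standing alone were not distinguishable in strength. The 65 in runs had a median fold of 6.72 (6.16 to 7.83) and the 190 others one of 6.58 (6.24 to 6.90). Median reads at the summit were 22 (20 to 32) and 27 (25 to 29), and median widths 243 bp (210 to 310 bp) and 277.5 bp (250 to 302 bp). Bloto peaks overlapped 27.7% (17.3% to 40.2%) of the first and 22.6% (16.9% to 29.2%) of the second. All of these intervals overlap.

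Peaks on the gene-dense chromosomes were not detectably stronger than the others. Their folds ran from 3.31 to 30.7 with a median of 6.61 (6.30 to 6.92), against 2.37 to 25.6 with a median of 6.84 (6.46 to 7.37) on the other chromosomes. The number of ChIP reads covering the summit, recovered from the fold and the p-value, had a median of 26 in both groups, with 12 to 97 reads in members and 12 to 89 in the others. Widths had a median of 272 bp (243 to 298 bp), from 146 to 1549 bp, against 306 bp (281 to 324 bp). The intervals of all 3 medians overlap between the groups. Among members, 95 were at least 350 bp wide, 37.3%, and 114 were under 250 bp, 44.7%. On the others these shares were 39.8% and 38.5%.

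For single chromosomes among the members these medians are given without intervals, so whether they differed was not assessed. The highest median fold was that of chromosome 17, 7.51, and the lowest that of chromosome 20, 6.04. Chromosome 17 also had the widest median peak, 316.5 bp, and chromosome 11 the narrowest, 234 bp, although the widest peak of all, 1549 bp, was on chromosome 11. Peaks in the highest quartile of WT fold, above 9.47, made up 21.6% (16.7% to 27.1%) of the members and 27.2% (22.8% to 32.0%) of the others. At the very top, 5 of the 10 WT peaks of highest fold and 37 of the first 100 were members, where members are 40.2% of the list.

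**Figure D4:**
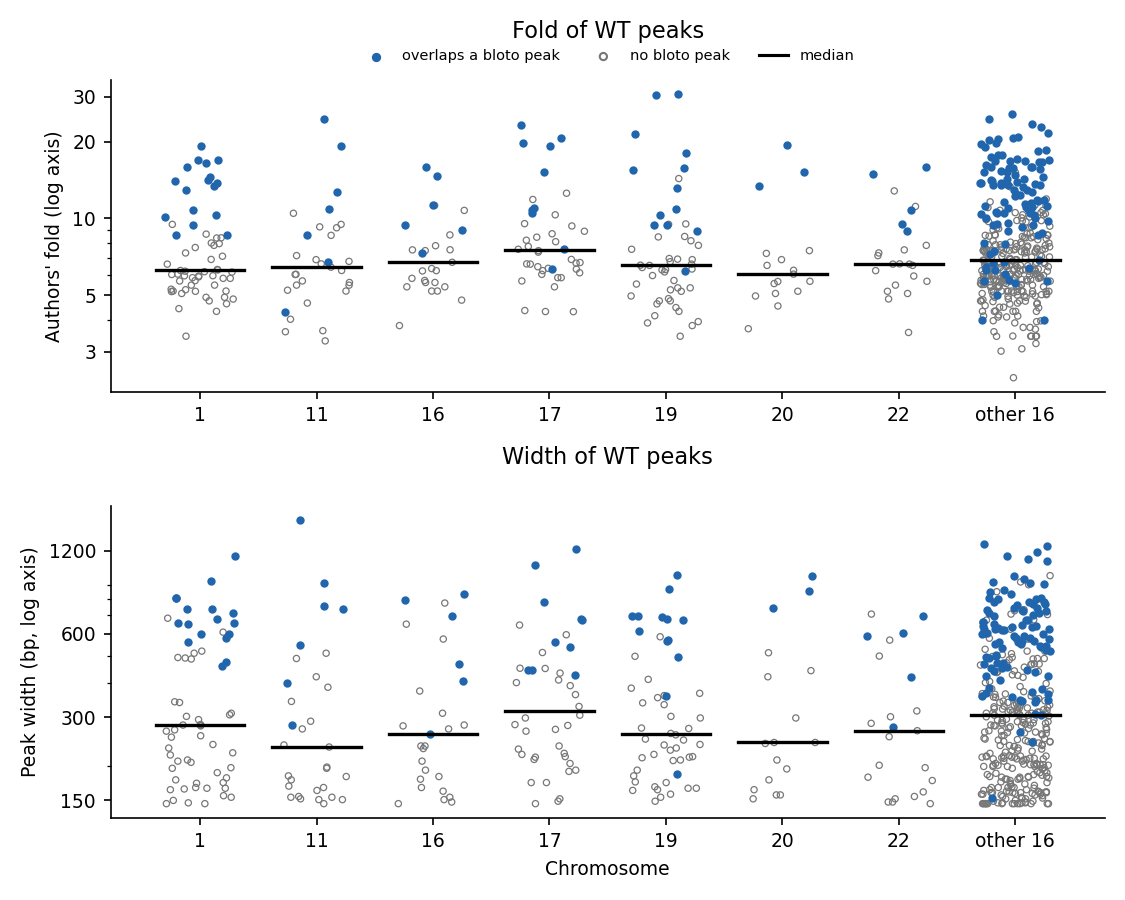
Fold (above) and width in bp (below) of every WT peak on each gene-dense chromosome and on the 16 others together, on log axes. Filled blue points overlap a bloto peak, open points do not, and black lines are medians, which for fold lie between 6.04 and 7.51 on the 7 chromosomes. Blue points lie mostly at high fold and large width in every column.

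Bloto peaks were also denser on the gene-dense chromosomes. The bloto list had 66 of its 174 peaks on the gene-dense chromosomes, 0.0905 per Mb (0.0700 to 0.115), and 108 on the others, 0.0468 per Mb (0.0384 to 0.0565). The ratio was 1.93 (1.401 to 2.65), beside 2.13 for WT. The lists are not independent counts of sites, since most bloto peaks lie at WT peaks. The first 3 chromosomes were those of the WT list: chromosome 19 had 0.237 bloto peaks per Mb, chromosome 17 had 0.135 and chromosome 22 had 0.0975. Below them the order differed, and chromosomes 14 and 2, with 0.0932 and 0.0905, stood above the other 4 gene-dense ones. There were 3.50 WT peaks per bloto peak on chromosome 1, with 18 bloto peaks, and 5.67 on chromosome 20, with 3. A WT peak was overlapped by 65 of these 66. The exception was chr1:57441061-57441206, with a fold of 4.79 and 15 reads. Untagged cells had 1 peak in all, also on a gene-dense chromosome, at chr11:66189134-66189404, and it overlapped no WT peak.

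Over all WT peaks, 26.2% overlapped a bloto peak by at least 1 bp. On the gene-dense chromosomes 61 of 255 did, 23.9% (18.8% to 29.6%), and on the others 105 of 379, 27.7% (23.3% to 32.5%). The intervals overlap, and no difference was detectable with these numbers. When each peak had to cover at least 50% of the other, the shares were 15.7% and 17.2%. Among the 7 chromosomes the share ran from 17.6% (3.80% to 43.4%) on chromosome 20, 3 of 17 peaks, to 27.0% (16.6% to 39.7%) on chromosome 1, 17 of 63. The other 16 chromosomes, with as few as 5 peaks on chromosome 21, ran from 14.3% to 40%. Each form was measured in 1 clone and 1 library, so the substitution, the clone and the library cannot be told apart.

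The share followed WT fold on the gene-dense chromosomes as it did elsewhere. Quartiles were set over all WT peaks, of which 3.12%, 7.01%, 16.4% and 78.5% overlapped a bloto peak from the lowest quartile to the highest. Of the members in the lowest quartile, with folds up to 5.60, 1 of 68 overlapped one, 1.47% (0.0372% to 7.92%), against 4 of 92 of the others. In the second it was 2 of 66, 3.03% (0.369% to 10.5%), against 9 of 91. In the third it was 14 of 66, 21.2% (12.1% to 33.0%), against 12 of 93. In the highest it was 44 of 55, 80.0% (67.0% to 89.6%), against 80 of 103, 77.7% (68.4% to 85.3%). In each quartile the intervals of members and others overlap. All 33 members with 60 or more reads at the summit had a bloto peak, and of the 50 with fewer than 20 reads 0 did, which allows a share of up to 7.11% (exact 95% interval). Over all WT peaks the counts were the same in kind, 89 of 89 and 0 of 132. Members without a bloto peak had at most 49 reads and members with one at least 24. On the other chromosomes these values were 57 and 20. Both cutoffs lie at or beyond these values, so the full and empty shares follow from where they were set.

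**Figure D5:**
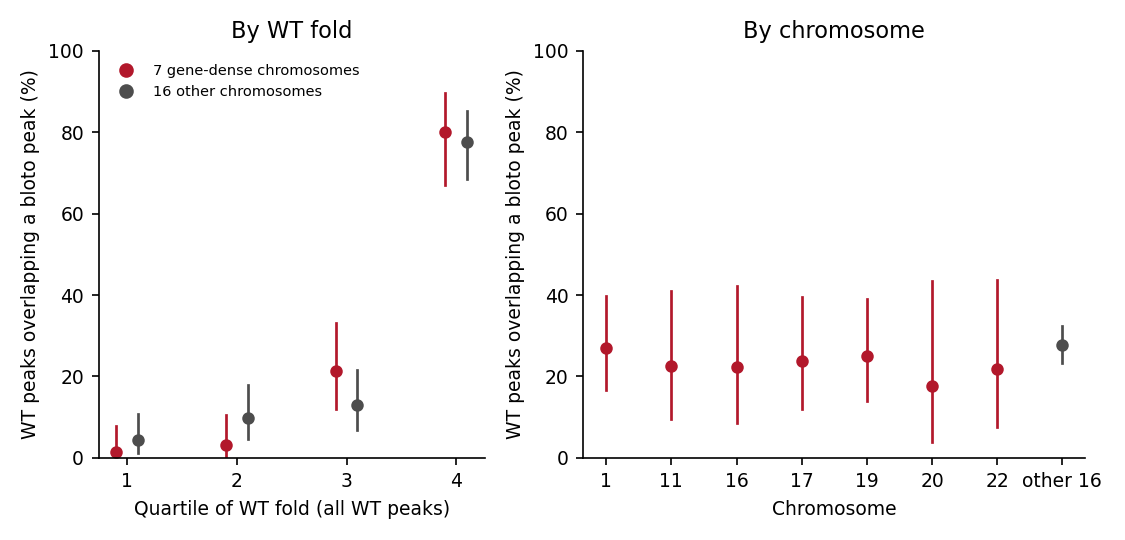
Percent of WT peaks that overlap a bloto peak, with exact Clopper-Pearson 95% intervals. Left, by quartile of WT fold for gene-dense (red) and other (grey) chromosomes, which overlap in all 4 quartiles; right, by chromosome, where the 7 members lie between 17.6% and 27.0% beside 27.7% for the others.

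The strongest peak of each gene-dense chromosome had a bloto peak, and so did that of each of the 16 other chromosomes. The members named as strongest all had 60 or more reads, and 89 of 89 WT peaks with that many had a bloto peak. On chromosome 19 it was chr19:3626622-3627319, with a WT fold of 30.7 from 87 reads and a bloto fold of 13.3 from 54 reads. On chromosome 11 it was chr11:34072689-34073426, with a WT fold of 24.5 from 68 reads and a bloto fold of 18.5 from 49. On chromosome 17 it was chr17:42976435-42977219, with 23.1 from 81 reads and 16.02 from 57. Folds of different lists rest on different backgrounds and are set side by side only. In all 3 peaks the summits of both lists lay within 29 bp of each other.

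The 4 other chromosomes had lower maxima. Chromosome 20 reached a WT fold of 19.3 from 89 reads at chr20:44600219-44601194, with a bloto fold of 16.5 from 68 reads. The headers of both lists open a browser on a window around this peak, and ZNF335 itself is a gene of chromosome 20. Chromosome 1 reached 19.3 from 74 reads at chr1:44412044-44412781, with a bloto fold of 11.3 from 45 reads. Chromosomes 16 and 22 both reached 15.96 from 61 reads, at chr16:66785257-66785951 and chr22:30987711-30988299. There the bloto folds were 11.8 from 35 reads and 15.2 from 42 reads. The WT maximum thus ran from 15.96 to 30.7 over the 7 chromosomes. A maximum depends on the number of peaks and varies more than a median by its nature, so no comparison with the medians was drawn.

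The strongest WT peaks without a bloto peak were lower by construction, since the top peak of each chromosome had one. The highest were chr19:38145522-38145823 with a WT fold of 14.3 from 38 reads, chr22:51221951-51222205 with 12.8 from 30 and chr17:6541426-6541815 with 12.5 from 34. They were followed by chr16:686733-687042 with 11.2 from 33 reads, chr11:8985789-8986208 with 10.5 from 28 and chr1:178511506-178511786 with 9.47 from 32. The highest on chromosome 20 was chr20:62289499-62290011, with 7.47 from 25 reads. All 7 had fewer than 60 reads, as they had to, since every member with 60 or more had a bloto peak. The one on chromosome 20 was below the median of 26 reads over all WT peaks.

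At sites called in both lists the bloto signal was lower than WT by a similar factor on both sets of chromosomes. Summit reads less local background were set at equal depth, the bloto library being 1.07 times as deep by its lowest background, if both lists used the same genome size and read extension. Total depths are unknown, so this scaling was not checked against them. Sites too weak in bloto to be called are not in these medians. The bloto signal was a median of 0.540 of WT (0.494 to 0.582) at the 61 members and 0.538 (0.512 to 0.572) at the 105 others. At the members it ran from 0.337 to 0.789 on this scale, and before scaling the bloto summit had fewer reads at all 61. The lowest ratio was at chr16:68877408-68877667, with 33 WT and 12 bloto reads, and the next were chr1:70671226-70671827, with 60 and 26, and chr19:39881377-39882050, with 65 and 30. The highest ratios were 0.789 at chr1:35497063-35497641, with 29 and 25 reads, 0.788 at chr1:62902245-62903052, with 70 and 58, and 0.788 at chr11:34937331-34938248, with 44 and 37. By chromosome the median ratio was lowest on chromosome 17, 0.495, and highest on chromosome 20, 0.670, the latter from 3 sites.

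Summits of shared members coincided closely. The WT and the bloto summit lay a median of 17 bp apart (11 to 28 bp), against 20 bp (14 to 32 bp) on the other chromosomes. They were at most 50 bp apart at 48 of the 61 members, 78.7%, and at 80 of the 105 others, 76.2%. Of the 6 WT peaks that overlapped 2 bloto peaks each, 4 were members, too few to set against the members' part of all shared WT peaks, 61 of 166. These 4 were chr11:34937331-34938248, chr16:70557259-70558053, chr17:47784667-47785884 and chr19:3185301-3186284, all 795 bp wide or wider.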

How the data were processed

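The authors' peak lists were used, 1 per ChIP sample (WT, bloto and control). They were called by MACS2 on build hg19 after CASAVA 1.8.2, cutadapt 1.4.1, BWA and SAMtools, per the submitters' processing notes. Other versions, the cutoff and which input each ChIP was set against were not given in those notes or the labels. The deposited lists give each peak a fold (ratio over local background), the −log10 of its p-value and of a q-value adjusted inside the list, and a score, which is the whole part of 10 times the latter.

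Coordinates are counted from 1. Chromosome lengths are the public hg19 values, entered by hand. Genes per chromosome were counted in a RefSeq table of GRCh38.p14, whose coordinates were not used, so no peak was assigned to a gene and no sequence is shown. Summit reads were recovered from fold and p (whole reads in 634 of 634 WT and 174 of 174 bloto peaks, −log10 p matched within 0.001; 8 WT peaks had more than 1 solution and took the closest). On simulated lists of 300 peaks made with the same formulas, 100% of reads were recovered. The simulation checks the inversion of the formulas alone, at backgrounds below the highest one recovered in WT, 23.4 reads. The lowest background of each list set the relative depth; total depths are unknown.

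Peaks were shared when overlapping by at least 1 bp. Rates carry exact Poisson, shares exact Clopper-Pearson and medians exact order-statistic intervals (95%), for counting error only. No test between conditions was made, as each has 1 library. Named peaks were the highest fold with and without a bloto peak per chromosome, the 5 largest runs, the 5 closest and 5 farthest neighbours and the 3 lowest and highest ratios; crowded windows and close pairs were described after their values were seen. The members and settings were chosen with earlier results of these data known. Python 3.11.15, numpy 2.4.6, pandas 2.3.3, scipy 1.17.1 and matplotlib 3.10.9 were used.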

Additional observations from a re-analysis of the deposited data

How the results depend on the processing

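Of 175 values recomputed under other settings, 137 stayed within the 95% interval of the reported value and 38 moved outside it. The order of gene-dense and other chromosomes turned 8 times. The share in runs turned at a −log10 q of at least 5 (16.2% and 20.8%), at 50 kb (20.78% and 20.84%) and without chromosome 22 (24.1% and 24.5%). The bloto share turned in the highest quartile at a fold of at least 5 (76.4% and 76.7%) and, with quartiles of reads, in the second (3.08% and 0%) and in the third (15.3% and 18.6%). The median bloto to WT ratio turned without chromosome 1 and without chromosome 22 (0.535 and 0.538 in both). For the gene-dense chromosomes, a −log10 q of at least 5 in both lists gave 0.280 peaks per Mb, 16.2% of peaks in runs, a median fold of 7.41 and a median width of 299.5 bp. A fold of at least 5 gave 0.3003 peaks per Mb and a median fold of 7.10. Peaks per Mb were 0.400 without chromosome 1 and 0.303 without chromosome 19. Reciprocal overlap of at least 50% left 15.7% of members shared, and 17.2% of the others. Runs at 10, 250 and 1000 kb took in 15.7%, 43.5% and 74.5% of members. Genes of any type gave 13.3 peaks per 1000 genes and a ratio of 1.399. The filters and run distances change the peaks counted by construction; for the other moves the cause was not tested. No paired analysis was possible because there is a single library of each kind, and so no replicate could be left out. Annotation of peaks and sequence content were not run, for want of an hg19 genome here. No setting varied the depth.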

Other observations

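Members lay near chromosome ends more often than the length of these ends would give. Within 5 Mb of either end of a gene-dense chromosome lay 44 of 255 WT peaks, 17.3% (exact 95% interval 12.8% to 22.5%), while these stretches are 9.60% of the length. On the other chromosomes it was 48 of 379, 12.7% (9.49% to 16.4%), for 6.94% of the length. The intervals of the 2 groups overlap, and the distance was chosen after seeing the data. Gene density along the chromosomes was not measured here.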
